A study of Mus musculus with 6 samples.

Results

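The liver makes most of the complement and clotting proteins of the blood, and the genes described here are 35 of these: 17 of complement, 16 of coagulation and fibrinolysis, and the plasma proteins Vtn and Ahsg, counted with neither. They were chosen by name, as every probe set that the platform annotation assigns to exactly 1 of these symbols. The choice found 43 probe sets for 32 genes among the 22626 probe sets used in all. C3, C4b and Cfd were not analysed here. After a filter on dim probe sets, 42 of the 43 remained among 14533 tested, and all 42 were above the floor on all 6 arrays. The one left out was the dimmest probe set of Masp1, at the floor on every array.

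The samples were livers of C57BL/6J mice, an inbred strain prone to obesity when fed fat, given a high-fat diet or a control diet. Livers were taken in weeks 2, 4 and 10, with 1 array for each diet and week, so that there were 3 high-fat and 3 control arrays. The labels name no transgene and give neither the sex and age of the mice, nor the make-up of the diets, nor the number of mice behind an array. Values are centred intensities of Affymetrix probe sets, and differences are high-fat minus control on the log2 scale within a week. Week 4 was run on a larger array design than weeks 2 and 10, so levels of week 4 were not set against those of the other weeks. As deposited, the hybridisation spike-ins bioD and cre read higher with the control diet than with the high-fat diet at each week. For bioD the intensities were 3822 on the high-fat and 5004 on the control array in week 2. They were 9363 and 13606 in week 4, and 5890.5 and 21253 in week 10. For cre they were 20202 and 34694 in week 2, 33698 and 52275 in week 4, and 37905 and 60895 in week 10. These values are not centred, and in week 2 the control array is scaled higher in them. The part of this gap in the diet differences was not tested at any week.

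Complement is a cascade of plasma proteases. Antibody complexes or sugars on microbes start it through C1 or through the mannose-binding lectins, the C3 and C4 stage amplifies it, and the terminal proteins from C5 to C9 build a pore in the target membrane. Coagulation is a second cascade, in which contact and tissue factors activate vitamin K-dependent proteases until thrombin turns fibrinogen into fibrin, which plasmin later dissolves. In the liver, hepatocytes express most of these genes under liver-enriched transcription factors such as HNF1, HNF4 and the C/EBP family, and inflammation raises many of them through interleukin-6 and STAT3.

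No member passed the test over the 3 weeks. The smallest limma adjusted p among the 42 probe sets was 0.993, and none had an unadjusted p under 0.05 (smallest 0.0541, the dimmer probe set of Masp2). Over all tested probe sets limma called 2, which is 0.0138%, and 586 had an unadjusted p under 0.05. Within a single week there is 1 array per diet and no test, so what follows gives values. In week 10 C8b was 3.16-fold and C8a 2.33-fold lower on the high-fat array, and Klkb1 2.02-fold higher. In week 4 C6 was 2.39-fold higher. In week 2 a dimmer probe set of Masp1 was 2.21-fold and one of Masp2 2.18-fold higher, which other probe sets of these genes did not match in size. The 3 fibrinogen genes were 1.62-fold to 1.90-fold lower in week 4, together with other very bright probe sets.

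**Figure D1:**
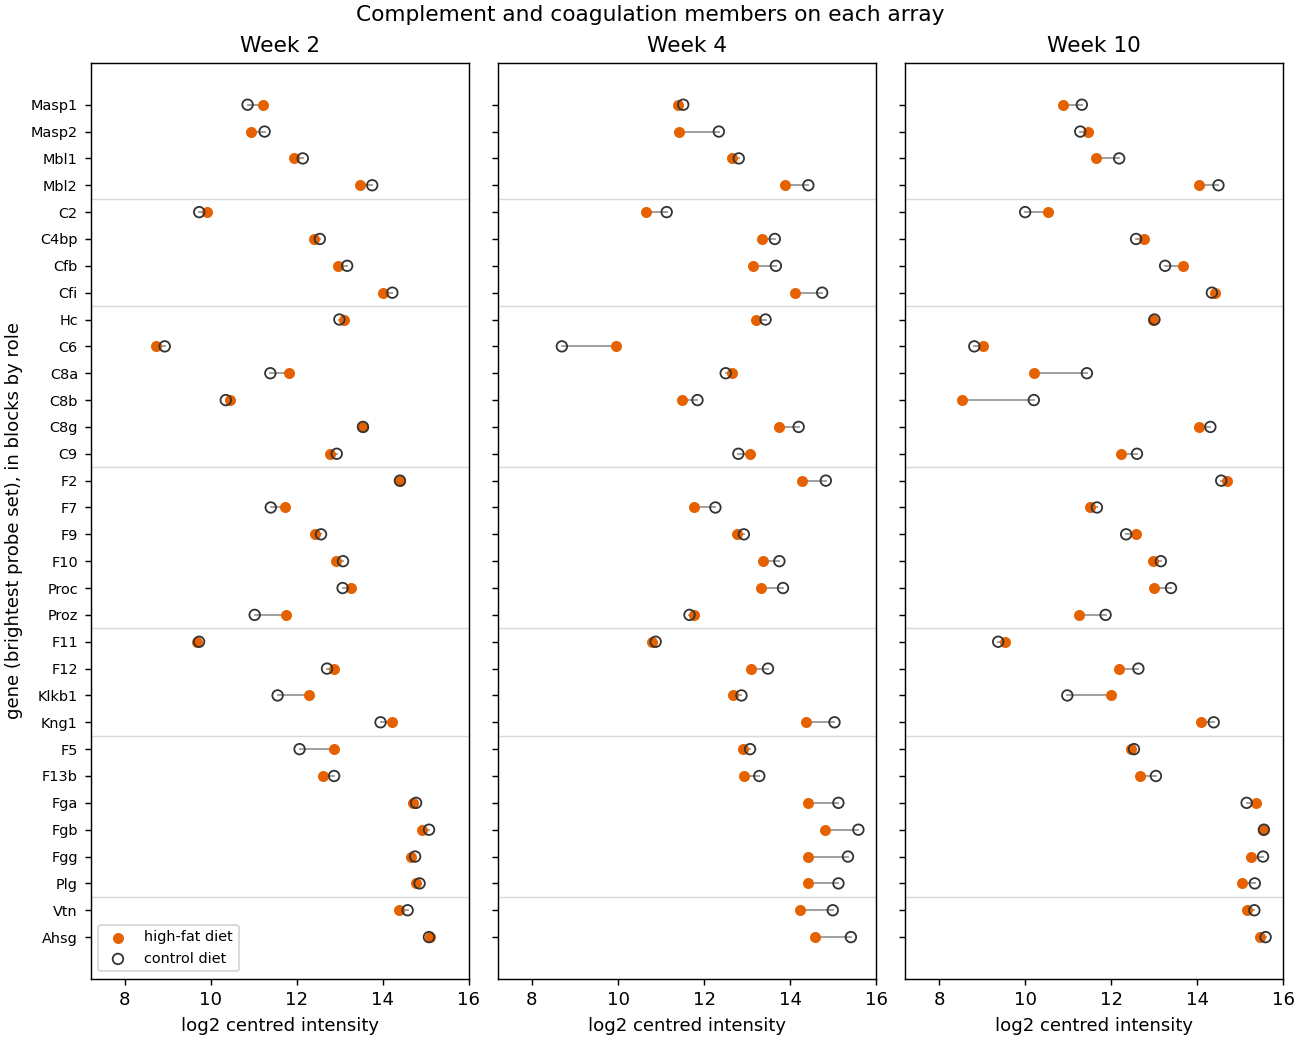
Centred log2 intensity of the brightest probe set of each of the 32 genes on the high-fat array (filled) and the control array (open) of weeks 2, 4 and 10, 1 array per point, in blocks by role. The widest gaps are those of C6 in week 4 and of C8a, C8b and Klkb1 in week 10, and the bright genes in the lower blocks lie to the left on the high-fat array in week 4.

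Counts of members at least 1.5-fold different were read beside those of all probe sets. In week 2, 6 of the 42 were that much higher on the high-fat array and 0 that much lower, where 7.38% of all tested probe sets were higher and 10.2% lower. Among the 6287 other probe sets nearest to the members in brightness the shares were 6.78% higher and 7.11% lower. In week 4, 1 member was higher and 10 were lower, where the shares were 4.46% and 7.27% of all, and 3.83% and 9.11% of those nearest in brightness. In week 10, 2 were higher and 4 lower, where the shares were 14.0% and 13.6% of all, and 10.7% and 13.5% of those nearest in brightness. The lower count of week 4 lay furthest above its background share. With the values as deposited, in which the control array of week 2 is scaled higher, 0 members were 1.5-fold higher and 23 lower in week 2, so directions of that week rest on the centring. Of the 42, 9 were lower and 3 higher on the high-fat array all 3 times, whatever the size, where 11.7% and 8.24% of all tested probe sets were, and 15.2% and 9.35% of those nearest in brightness. In the brightest class, with a mean level of at least 14 on the log2 scale, 5 of 11 members were lower all 3 times and 0 higher, where 59.4% and 0.508% of the 197 other probe sets were.

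The differences of week 4 moved with brightness across the whole array. The 11 member probe sets of the brightest class had median differences of -0.08, -0.71 and -0.17 in weeks 2, 4 and 10. The 197 other probe sets of that brightness had -0.12, -0.66 and -0.27. Of the 10 members past 1.5-fold on the low side in week 4, 9 belonged to these 11. In week 4 the 15 members between 12 and 14 had a median of -0.29 and the 16 dimmer ones a median of -0.01. To take this into account, the median difference of the 500 other probe sets nearest in mean brightness was subtracted from each member. Then 1 member stayed at least 1.5-fold lower in week 4, the brighter Masp2 probe set at -0.85, and 1 higher, C6 at 1.26. For the very brightest members these 500 reach down to dimmer probe sets. All 11 still lay below their neighbours, with a median of -0.19, and the part of that reach in it was not tested. The counts of weeks 2 and 10 were the same after the subtraction, 6 higher and 0 lower in week 2 and 2 higher and 4 lower in week 10.

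**Figure D2:**
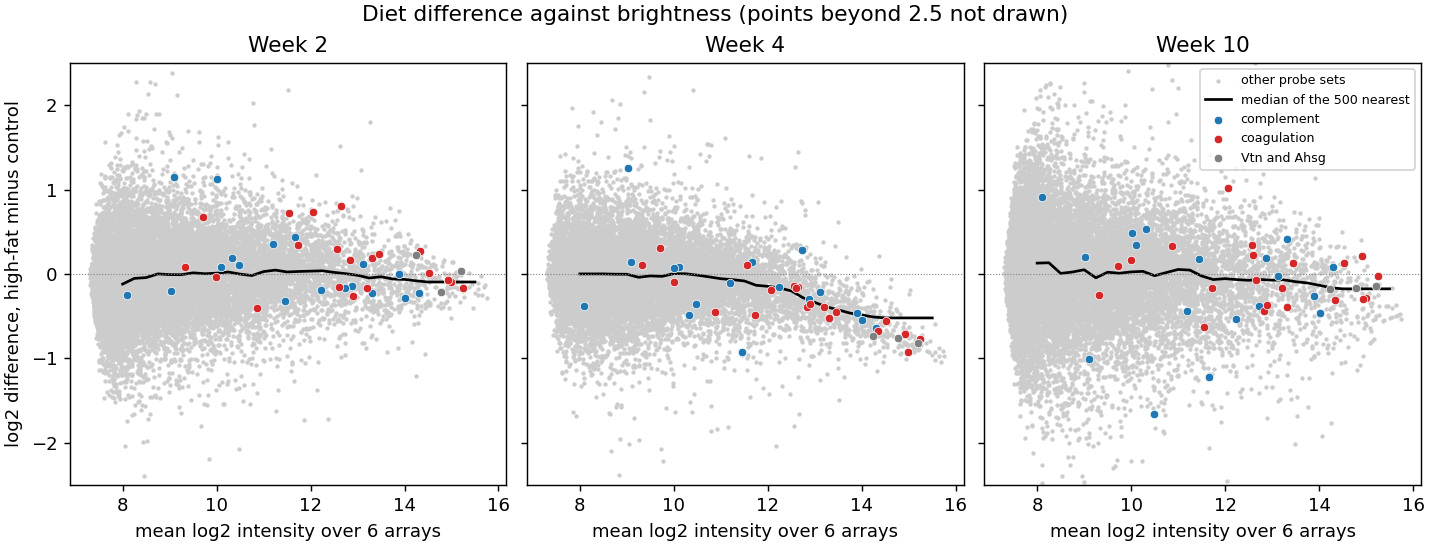
Diet difference (log2, high-fat minus control) against mean log2 intensity over the 6 arrays for the 42 member probe sets and all other tested probe sets at each week, with the median of the 500 nearest other probe sets as a line. In week 4 the line bends down towards bright probe sets and the bright members follow it, while C6 in week 4 and C8a and C8b in week 10 lie far from it.

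Signs of RNA quality differed between the arrays without one pattern. For pyruvate carboxylase the 3'/5' ratio reached 9.64 on the high-fat and 3.82 on the control array in week 2, 7.78 and 4.26 in week 4, and 2.39 and 4.01 in week 10. That of beta-actin was 1.61 and 1.20 in week 2, 2.35 and 2.15 in week 4, and 1.17 and 1.73 in week 10. That of Gapdh was 1.01 and 0.783 in week 2, 0.814 and 0.820 in week 4, and 0.832 and 0.906 in week 10. The gap of pyruvate carboxylase and that of Gapdh were widest in week 2, and that of beta-actin in week 10. All 3 ratios were lower on the high-fat array in week 10. The hepatocyte markers Alb, Ttr, Apoa1, Tat, Tdo2, Cps1 and Hnf4a were above the floor on all arrays, with median differences of -0.25, -0.84 and -0.48 in weeks 2, 4 and 10. Their summed intensity was 137459 on the high-fat and 248355 on the control array in week 4. All of them but Hnf4a belonged to the brightest class, whose 197 non-member probe sets had a median of -0.66 in week 4. Of these markers 6 were at least 1.5-fold lower in that week, where 7.27% of all tested probe sets were. After subtraction of the nearest in brightness 0 were. These 6 still lay below their neighbours, from -0.17 (Tdo2) to -0.50 (Alb), while Hnf4a went from -0.13 to 0.18. Over the 3 weeks 4 of the 7 markers had an unadjusted limma p under 0.05, as did 586 of all 14533 tested probe sets. None of the markers passed the adjusted threshold. Of the adipocyte markers, Adipoq, Lep and Cidea were at the floor on all 6 arrays and Retn on 3. Car3, from the same list, was bright on every array, with 20489 on the high-fat and 32676 on the control array in week 4. In bulk liver, fewer hepatocytes and less RNA per hepatocyte cannot be told apart, and the part of RNA quality or cell make-up in the members' differences was not tested.

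Complement was next set against coagulation. The 18 complement probe sets had median differences of -0.07, -0.26 and 0.03 in weeks 2, 4 and 10, and the 21 of coagulation had 0.08, -0.39 and -0.08, where all tested probe sets had -0.04, 0.00 and 0.01. The complement median minus the coagulation median was -0.15, 0.13 and 0.10, and -0.15, 0.05 and 0.12 after subtraction of the nearest in brightness. The SD over single probe sets was 0.44, 0.48 and 0.67 in complement and 0.35, 0.32 and 0.36 in coagulation. Complement had the lower median in week 2 and the higher one in weeks 4 and 10. Genes with more than 1 probe set, such as Masp1 and Masp2, weigh more in these medians. Over the brightest probe set per gene the week 10 medians were -0.146 for complement and -0.169 for coagulation. With quantile normalization those of week 4 were 0.039 and 0.044, the complement median being the lower. The gap between the classes was not tested.

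The terminal pathway held the 3 largest differences, those of C8b, C6 and C8a. C8 is built of an alpha, a beta and a gamma chain, and C8a and C8b, which encode the alpha and beta chains, are direct neighbours in the RefSeq gene order, while C8g is not beside them. The 250 bases before the RefSeq start of each are shown because both genes were low on the same array. They are from GRCm38.p6, 5′ to 3′ on the gene's strand. The C8a window is chr4:104876399-104876648 (minus strand) and that of C8b is chr4:104766067-104766316 (plus strand).
C8a: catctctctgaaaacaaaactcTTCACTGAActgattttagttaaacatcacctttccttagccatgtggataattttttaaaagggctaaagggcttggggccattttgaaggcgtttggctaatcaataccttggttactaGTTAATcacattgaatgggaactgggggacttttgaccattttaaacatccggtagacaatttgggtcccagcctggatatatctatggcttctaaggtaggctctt
C8b: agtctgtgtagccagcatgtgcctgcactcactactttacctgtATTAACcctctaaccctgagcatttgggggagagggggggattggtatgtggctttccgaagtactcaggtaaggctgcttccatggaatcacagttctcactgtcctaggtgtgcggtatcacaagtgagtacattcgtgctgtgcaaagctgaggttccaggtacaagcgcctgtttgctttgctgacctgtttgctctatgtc
Capitals mark exact matches on either strand to GTTAAT, the half-site of HNF1, and to TTCNNNGAA, the STAT site. Each window holds 1 HNF1 half-site, and that of C8a also 1 STAT site. A match describes the letters and not binding.

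C8a had an intensity of 3611 on the high-fat and 2668 on the control array in week 2, 6393 and 5810.1 in week 4, and 1189.7 and 2774 in week 10. C8b had 1400.3 and 1301 in week 2, 2882.5 and 3688 in week 4, and 373 and 1179.6 in week 10. The high-fat array of week 10 was thus the low one for both genes, and at the other weeks the diets lay closer. The C8a differences were 0.44, 0.14 and -1.22, and 2.0% of the 500 probe sets nearest in brightness were lower still in week 10. The C8b differences were 0.11, -0.36 and -1.66, and 0.4% of its nearest were lower still in week 10. Over the 3 weeks the mean difference was -0.22 for C8a (standard error 0.315, limma adjusted p = 0.996) and -0.64 for C8b (standard error 0.322, limma adjusted p = 0.993).

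C8g, which encodes the gamma chain, did not share that low value. It had an intensity of 11828 on the high-fat and 11873 on the control array in week 2, 13617 and 18838 in week 4, and 16880.0 and 20299.9 in week 10. Its differences were -0.01, -0.47 and -0.27, and those of week 4 and week 10 were 0.01 and -0.14 after subtraction of the nearest in brightness.

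C6, which binds C5b and starts the assembly of the pore, had an intensity of 424 on the high-fat and 486 on the control array in week 2, 989.9 and 414 in week 4, and 521 and 452 in week 10. The high-fat array of week 4 was high by itself, with a difference of 1.26 against -0.20 and 0.21 in weeks 2 and 10. Only 1.0% of the nearest probe sets were higher in week 4. Over the 3 weeks C6 had a mean difference of 0.42 (standard error 0.290, limma adjusted p = 0.993).

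C9, which closes the pore by polymerizing, had differences of -0.17, 0.28 and -0.38. Hc, the mouse gene of C5, had differences of 0.12, -0.22 and -0.03, the last being the smallest of the group in week 10. As a group, the 6 terminal genes had median differences of 0.05, -0.04 and -0.32. Of the 6, 5 were lower on the high-fat array in week 10, as were 24 of all 42 member probe sets. After subtraction of the nearest in brightness the terminal medians were 0.08, 0.20 and -0.22. Then 4 of the 6 lay below their neighbours in week 10, and Hc stood at 0.04. Apart from the genes covered by the naming rule, which takes C6, C8a, C8b, Klkb1 and the fibrinogen genes, those named with values were picked after their values were seen.

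**Figure D3:**
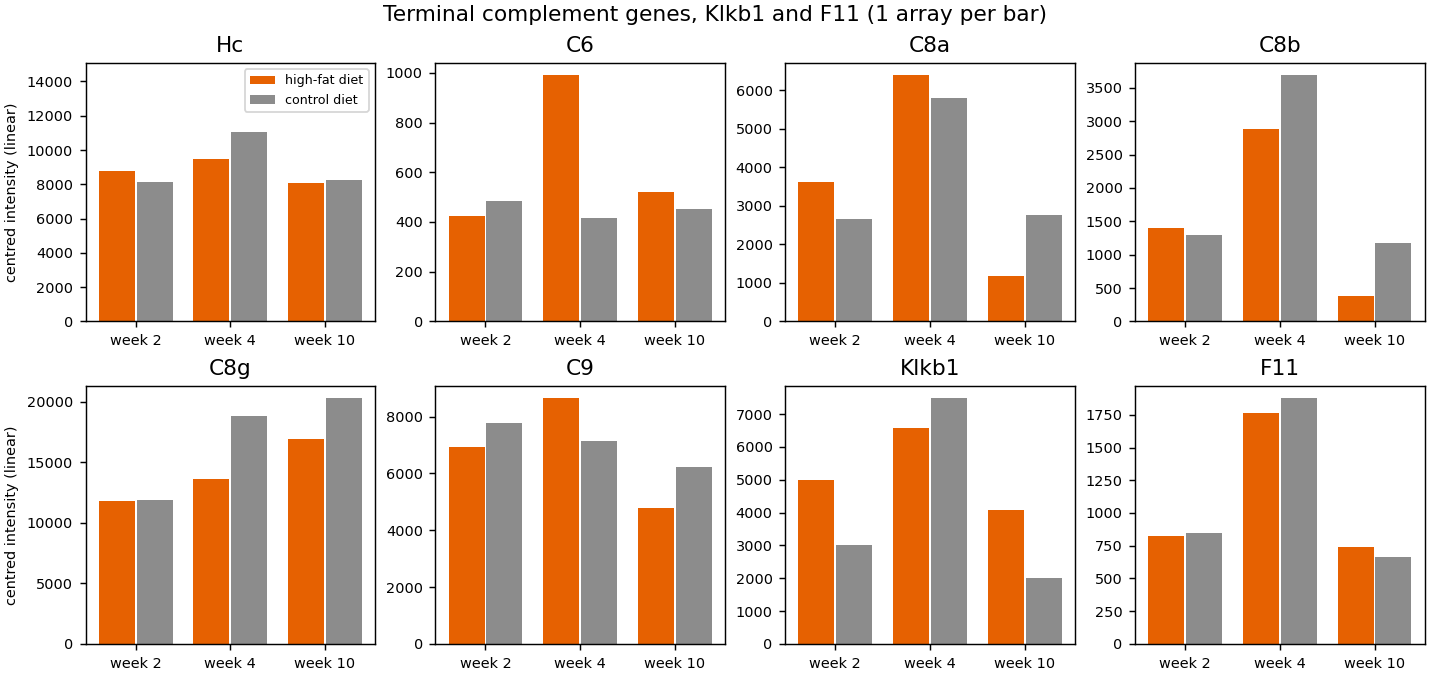
Centred linear intensity of 6 terminal complement genes and of the neighbours Klkb1 and F11 on the high-fat (left bar) and control (right bar) array of weeks 2, 4 and 10, 1 array per bar. The low high-fat bars of C8a (1189.7) and C8b (373) in week 10 have no counterpart in C8g, and the Klkb1 bars of weeks 2 and 10 are higher on the high-fat diet while those of F11 are nearly level.

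The lectin pathway begins with Mbl1 and Mbl2, lectins that bind microbial sugars, and with their proteases Masp1 and Masp2. Mbl2 was lower on the high-fat array all 3 times, with intensities of 11319.8 against 13781 in week 2, 15118 against 22021 in week 4, and 16823 against 23119.7 in week 10, the control array second in each pair. Its differences were -0.28, -0.54 and -0.46 (mean -0.43, standard error 0.214, unadjusted p = 0.0743 and limma adjusted p = 0.993), and only -0.22, -0.05 and -0.32 after subtraction of the nearest in brightness. Mbl1 had -0.19, -0.16 and -0.53, also lower at each week.

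The proteases were measured by probe sets that disagreed. The brightest of Masp1 had differences of 0.35, -0.11 and -0.43. A dimmer one had 1.14, 0.15 and -1.005, and the dimmest of those tested had -0.25, -0.38 and 0.91, so that in week 10 they pointed opposite ways by more than 1.5-fold. The second brightest had 0.08, 0.09 and 0.35. Masp1 transcripts are spliced to different proteases, and which transcripts each probe set reads was not examined. The brighter Masp2 probe set had -0.33, -0.92 and 0.18 and the dimmer one 1.13, 0.07 and 0.48 (mean 0.56, standard error 0.254, limma adjusted p = 0.993). No direction is therefore given for either gene.

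**Figure D4:**
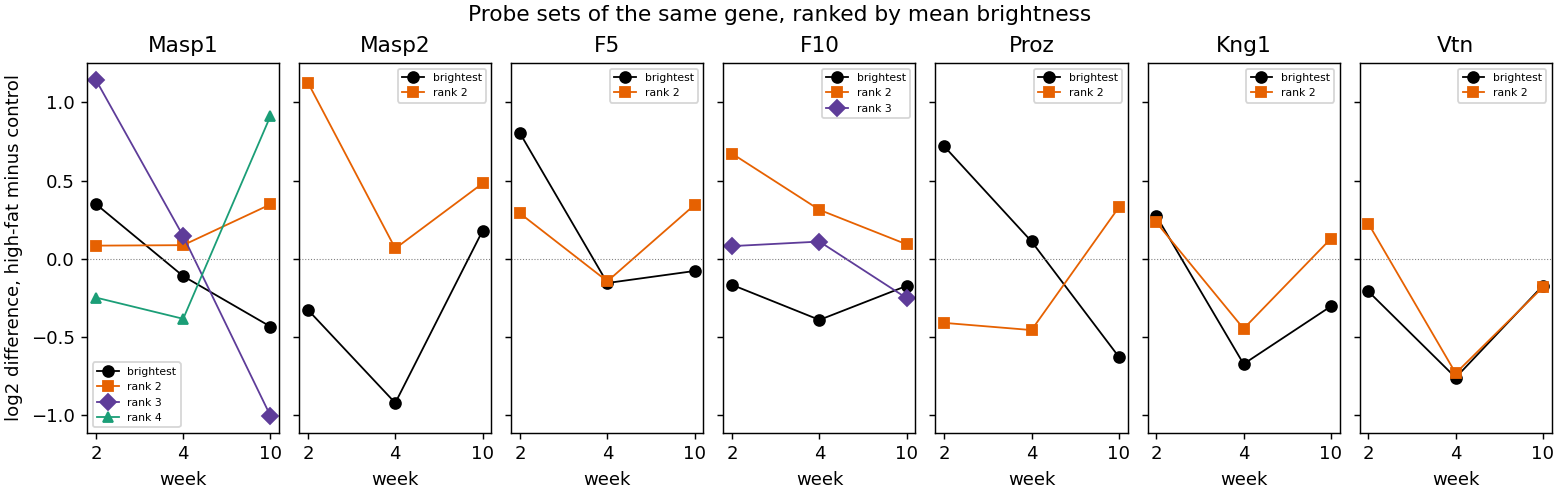
Diet difference (log2, high-fat minus control) in weeks 2, 4 and 10 for each tested probe set of the 7 genes with over 1, ranked by mean brightness. Those of Proz and some of Masp1 cross zero in opposite directions and those of Masp2 lie apart in weeks 2 and 4, whereas those of Vtn lie together in weeks 4 and 10.

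At the C3 and C4 stage, Cfb and C2 encode the catalytic parts of the convertases of the alternative and classical pathways and are neighbouring genes. Cfb had an intensity of 7877 on the high-fat and 9206 on the control array in week 2, 9021 and 13042 in week 4, and 12999 and 9787 in week 10. C2 had 966 and 848 in week 2, 1595 and 2244 in week 4, and 1489 and 1025 in week 10. Both were lower on the high-fat array in week 4 and higher in week 10, with differences of -0.53 and 0.41 for Cfb and of -0.49 and 0.54 for C2 at those weeks. Other C2 probe sets, on the larger design alone, had -0.26 and -0.12 in week 4.

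Cfi, the protease that inactivates C3b and C4b, had differences of -0.22, -0.64 and 0.08. C4bp, its cofactor, had -0.14, -0.29 and 0.19. All 4 analysed genes of this stage were lower on the high-fat array in week 4 and higher in week 10, while C3, C4b and Cfd were not analysed. Of all 42 member probe sets, 33 were lower in week 4 and 18 higher in week 10. The stage had medians of -0.51 and 0.30, and of -0.13 and 0.38 after subtraction of the nearest in brightness. After it, 3 of the 4 lay below their neighbours in week 4, with C4bp at 0.02, and 0 did in week 10. None of the 4 genes had an unadjusted p under 0.285 over the 3 weeks.

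Fibrinogen has 3 chains, encoded by Fga, Fgb and Fgg, which lie side by side in the order Fgg, Fga, Fgb and are produced together. The 250 bases before each start are printed because the 3 genes were lower together on the high-fat array of week 4. They are from RefSeq on GRCm38.p6, at chr3:83025903-83026152 for Fga (plus strand), chr3:83049864-83050113 for Fgb (minus strand) and chr3:83007474-83007723 for Fgg (plus strand).
Fga: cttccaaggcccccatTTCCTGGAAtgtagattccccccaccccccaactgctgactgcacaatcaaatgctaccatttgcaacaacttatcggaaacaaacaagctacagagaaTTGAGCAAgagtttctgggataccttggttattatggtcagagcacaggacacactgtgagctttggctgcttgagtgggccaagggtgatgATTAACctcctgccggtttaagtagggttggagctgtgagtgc
Fgb: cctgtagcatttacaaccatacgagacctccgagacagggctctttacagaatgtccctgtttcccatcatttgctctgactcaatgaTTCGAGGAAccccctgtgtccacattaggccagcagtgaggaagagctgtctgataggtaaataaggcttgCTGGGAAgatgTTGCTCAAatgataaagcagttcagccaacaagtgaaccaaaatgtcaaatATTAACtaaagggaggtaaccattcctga
Fgg: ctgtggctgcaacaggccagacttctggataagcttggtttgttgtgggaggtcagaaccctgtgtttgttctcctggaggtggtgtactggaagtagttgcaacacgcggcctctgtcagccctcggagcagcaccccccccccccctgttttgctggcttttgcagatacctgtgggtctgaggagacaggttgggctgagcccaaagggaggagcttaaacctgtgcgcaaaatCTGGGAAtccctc
Capitals mark matches on either strand to GTTAAT (HNF1 half-site), TTGCNNAA (C/EBP site), CTGGGAA (interleukin-6 response element) and TTCNNNGAA (STAT site). Fga and Fgb each hold the HNF1 half-site, a C/EBP and a STAT site, Fgb also holds the interleukin-6 element, and Fgg holds that element alone among these letters. The order of the 3 genes and the motifs were described here and not tested against the values.

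Fga had an intensity of 26687 on the high-fat and 27953 on the control array in week 2, 22022 and 35734 in week 4, and 42053 and 36413 in week 10. Fgb had 30686 and 34444 in week 2, 28880.5 and 49332 in week 4, and 47243 and 48091 in week 10. Fgg had 25799 and 27510.5 in week 2, 21899.6 and 41690.4 in week 4, and 38861 and 47438 in week 10. The diets were close in week 2 for all 3 chains, apart in week 4 with the high-fat array lower, and close again in week 10 except for Fgg.

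The week 4 differences were -0.70 for Fga, -0.77 for Fgb and -0.93 for Fgg, where the 197 other probe sets of their brightness class had a median of -0.66. With quantile normalization Fga and Fgb turned to 0.09 and 0.04 in week 4, and Fgg to -0.21. Over the 3 weeks the mean differences were -0.19 for Fga (standard error 0.244, limma adjusted p = 0.996), -0.32 for Fgb (standard error 0.236, limma adjusted p = 0.993) and -0.44 for Fgg (standard error 0.241, limma adjusted p = 0.993).

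Plg, the precursor of plasmin and also in the brightest class, had -0.08, -0.71 and -0.29. After subtraction of the nearest in brightness it had 0.02, -0.19 and -0.12. F13b, the carrier subunit of the enzyme that cross-links fibrin, was lower on high-fat food each time, with -0.26, -0.36 and -0.37. The same subtraction left F13b at -0.26, -0.04 and -0.29. Factor V, the cofactor of factor Xa, was read by a pair of F5 probe sets with differences of 0.80 and 0.29 in week 2, -0.15 and -0.14 in week 4, and -0.08 and 0.35 in week 10.

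The vitamin K-dependent factors, proteases or inhibitors that need a carboxylated domain to bind membranes, had differences of either sign. F2, the gene of thrombin, had 0.01, -0.56 and 0.13, and F9, the factor lacking in human haemophilia B, had -0.15, -0.16 and 0.23. F7, which tissue factor binds to start clotting, had 0.34, -0.49 and -0.17. Proc, the gene of the anticoagulant protein C, had 0.19, -0.52 and -0.39. The brightest probe set of F10, the gene of the protease that makes thrombin, had -0.17, -0.39 and -0.17, while a dimmer one had 0.67, 0.31 and 0.09. The dimmest F10 probe set had 0.08, 0.11 and -0.25. Proz, whose protein assists an inhibitor of factor Xa, had 0.72, 0.11 and -0.63 on its brighter probe set and -0.41, -0.46 and 0.33 on the other. The 9 probe sets of this class had medians of 0.08, -0.39 and -0.17. These medians were 0.102, -0.009 and -0.095 after subtraction of the nearest in brightness. F7, F10 and Proz are consecutive genes, and in week 2 only the brighter Proz and a dimmer F10 probe set were 1.5-fold higher.

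In the contact system, Klkb1 encodes plasma prekallikrein, the protease that frees bradykinin from kininogen. It had an intensity of 4979.5 on the high-fat and 2999.5 on the control array in week 2, 6566 and 7491 in week 4, and 4089 and 2022 in week 10. The high-fat array was the higher in weeks 2 and 10 and the lower in week 4. The differences were 0.73, -0.19 and 1.02, and 1.6% and 1.4% of the 500 nearest probe sets were higher still in weeks 2 and 10. Over the 3 weeks the mean was 0.52 (standard error 0.269, unadjusted p = 0.0842, limma adjusted p = 0.993).

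F11, the neighbour of Klkb1 and a related protease, had intensities of 822 on the high-fat and 846 on the control array in week 2, 1763 and 1878 in week 4, and 742 and 664 in week 10. Its differences were -0.04, -0.09 and 0.16, so the Klkb1 difference had no match in F11. F12, the protease that activates both, had 0.17, -0.39 and -0.44. Kng1, the gene of kininogen, had 0.27, -0.67 and -0.30 on its brighter probe set and 0.23, -0.45 and 0.13 on the other. After subtraction of the nearest in brightness F12 had -0.08 in week 4, and the Kng1 probe sets -0.16 and -0.03.

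Vtn encodes vitronectin, which binds the terminal complex, and Ahsg encodes fetuin A, a carrier of calcium phosphate. The brighter Vtn probe set had -0.21, -0.76 and -0.17, the other 0.22, -0.73 and -0.18, and Ahsg 0.03, -0.82 and -0.14. All 3 passed 1.5-fold in week 4 only, on the low side, within the brightest class.

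Weeks 2 and 10, which share an array design, were also set against each other on each diet. These values use the same arrays as the diet differences and are not independent of them. On the high-fat diet 8 of the 42 members were at least 1.5-fold higher in week 10 than in week 2 and 5 lower, where 20.3% and 14.6% of all tested probe sets were. On the control diet 7 were higher and 0 lower, where the shares were 12.2% and 10.4%. C8a differed by -1.60 on the high-fat and 0.06 on the control diet, and C8b by -1.91 and -0.14, so it is the high-fat array of week 10 that stands low and the control arrays that stand level. For Klkb1 the values were -0.28 on the high-fat and -0.57 on the control diet. The fibrinogen genes were higher in week 10 on both diets, with 0.66, 0.62 and 0.59 on the high-fat and 0.38, 0.48 and 0.79 on the control diet for Fga, Fgb and Fgg. The 11 brightest members had medians of 0.42 on the high-fat and 0.49 on the control diet, where the 197 other probe sets of that brightness had 0.26 and 0.45.

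**Figure D5:**
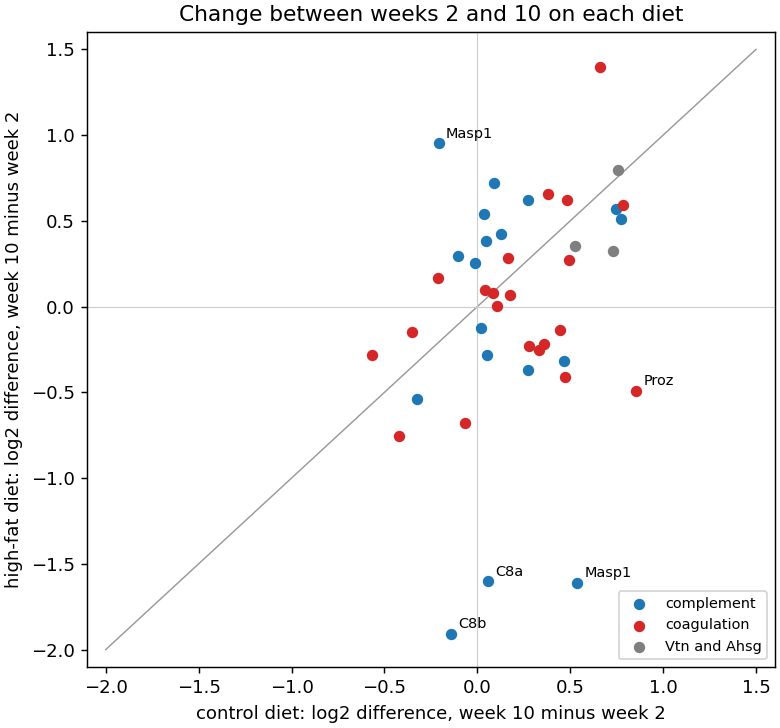
Difference between week 10 and week 2 (log2) on the high-fat diet (vertical) against that on the control diet (horizontal) for the 42 member probe sets, 1 array per diet and week, with the line of equality. C8a and C8b lie near zero on the control diet and at -1.60 and -1.91 on the high-fat diet.

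The 250 bases before the start of the other members were searched on both strands for these and further letters, and RefSeq windows were found for 25 of the 32 genes. GTTAAT (HNF1 half-site) was in 9 of the 25 (C4bp, C8a, C8b, F13b, Fga, Fgb, Hc, Proz and Vtn), where 7.49% of 27025 genes had it. TTGCNNAA (C/EBP) was in 7, where 10.8% had it, and TTCNNNGAA (STAT) in 5, where 8.13% had it. CTGGGAA was in 4 (10.4% of all genes), TATAAA in 3 (14.3%) and CAAAGTCCA, an HNF4 site, in 0 (0.451%). Genes with the HNF1 half-site included both the lowest members of week 10, C8a and C8b, and ones that did not differ by 1.5-fold at any week, such as Hc and C4bp.

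Other genes of the pathways, from lists by function, gave no call either. Of 58 genes in 7 lists 47 were tested, 0 passed the limma threshold and 0 had an unadjusted p under 0.05. The list with C1, lectins and receptors had medians of -0.16, -0.24 and 0.70 in weeks 2, 4 and 10. In week 10, 7 of its 8 tested genes had the higher value with the high-fat diet, and 5 passed 1.5-fold, before and after subtraction of the nearest in brightness, where 14.0% of all tested probe sets did. These were Cfp (properdin, which stabilizes the alternative convertase) by 1.82, C1qc by 0.83, C1s1 by 0.79, Fcna by 0.74 and C1qa by 0.65. The 11 tested macrophage markers, which share C1qa, C1qb and C1qc with this list, moved alongside. Their medians were -0.15, 0.03 and 0.75, all 11 were higher in week 10, and their summed intensity was then 24014 on the high-fat and 14049.8 on the control array. Of the 11, 8 passed 1.5-fold in week 10, where 14.0% of all tested probe sets did. Week 10 medians were also higher for markers of endothelial cells (0.42, with 4 of 5 tested genes higher) and stellate cells and matrix (0.32, 5 of 6). That of lymphocytes and neutrophils was 0.50 (5 of 5), and that of hepatocytes was -0.48 (0 of 7). The platelet median of 0.18 and the adipocyte median of -0.29 each rested on 2 tested genes of opposite sign. The part of macrophages in the C1 values was not tested.

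The 4 complement inhibitors had medians of 0.00, -0.36 and 0.25. Of 14 tested coagulation inhibitors and fibrinolysis genes 6 were at least 1.5-fold lower in week 4, where 7.27% of all tested probe sets were. Among them were Serpinc1, the gene of antithrombin, at -0.76, Serpinf2, the plasmin inhibitor, at -0.72, and Pzp at -0.71. After subtraction of the nearest in brightness 0 of the 6 stayed past 1.5-fold, with -0.24, -0.27 and -0.19 for these genes. Of the vitamin K enzymes, Ggcx, the carboxylase, had -0.22, -0.36 and -0.48, and Vkorc1, which recycles vitamin K, -0.20, -0.46 and 0.05. Of F3, F8, F13a1 and Vwf only F8 was tested, with -0.42, -0.29 and 0.84.

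Among the regulators, Cebpa, a liver-enriched activator, had 0.65, 0.14 and 0.58 (unadjusted p = 0.0708 by limma). Cebpb, which responds to interleukin-6, had 0.31, 0.16 and -0.88, and Socs3, a target of STAT3, 0.58, 0.09 and -0.50. Hnf4a had 0.07, -0.13 and -0.32. The 11 positive acute phase genes had medians of -0.23, -0.33 and -0.09. Haptoglobin (Hp) had an intensity of 18479 on the high-fat and 30866 on the control array in week 4, a difference of -0.74. Saa1 had 4317 and 3341 there, a difference of 0.37. Hp, like the fibrinogen genes, was in the brightest class, whose 197 non-member probe sets had a median of -0.66 in week 4, and Saa1 was dimmer. After subtraction of the nearest in brightness Hp had -0.22 and Saa1 0.405 in week 4.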

How the data were processed

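The authors deposited 1 linear signal intensity per probe set and array, and the step from single probes to these values was not described in the sources used here. Per the labels' protocols, RNA of frozen liver was labelled with a biotin transcription kit. Trimmed means of the deposited intensities were near 500 on 5 arrays and 800.3 on the control array of week 2.

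From these intensities, log2 values were taken for the probe sets on both designs and the median of 9922 probe sets above the floor on all arrays was made equal between arrays. Values under the 40th percentile (intensity 155.3) were set to it as a floor. Probe sets above it on at least 3 arrays were tested with limma 3.58.1 in R 4.3.3, with week as a block, eBayes and Benjamini-Hochberg adjustment at 0.05. Its error term is how far the weeks differ in their diet difference. A difference of 1.5-fold describes single weeks. Symbols come from the platform annotation, updated by gene identifier. Numbers of arrays limit the precision.

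Values on every array are given by rule for genes whose brightest probe set was at least 1.5-fold different the same way at 2 weeks, or at least 2-fold at any week, or had an unadjusted p under 0.05, and for C3 and the fibrinogen genes. The members, lists, motifs and tests were chosen with earlier results of these data known. The test was checked on simulated data. Alternatives are given in the closing section.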

Additional observations from a re-analysis of the deposited data

Results flagged for a closer look

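Masp1 and Proz each had a probe set that was at least 1.5-fold higher on the high-fat array at one week and at least 1.5-fold lower at another. The third brightest Masp1 probe set had a log2 difference of 1.144 at week 2 and -1.005 at week 10. The brighter Proz probe set had 0.719 at week 2 and -0.627 at week 10. With 1 array per diet and week the difference between the weeks was not tested. The brightest Masp1 probe set turned the same way by less, with 0.35 and -0.43, while the other Masp1 probe sets tested and the dimmer Proz probe set were not lower in week 10.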

How the results depend on the processing

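No member was called by limma in any of 14 alternative settings (smallest adjusted p 0.459, without week 10), and 0 to 3 members had an unadjusted p under 0.05. Over all probe sets the 2 calls became 10 with the values as deposited and 1 with eBayes with trend and robust or with the mean of a gene's probe sets. They became 0 with no week block, quantile normalization, a floor at the 20th or 60th percentile, loess on brightness, no shared probe sets or no filter, and 0 to 9 when 1 week was left out (9, 0 and 6 without week 2, 4 and 10). The values as deposited, where the control array of week 2 is scaled higher, gave week 2 medians of -0.74 for complement and -0.59 for coagulation, with 0 members higher and 23 lower. At week 4 the complement median was 0.039 with quantile normalization, 0.058 with loess, 0.008 after subtraction of the 500 nearest in brightness and 0.020 after that of the 100 nearest, a setting chosen after seeing the data. The coagulation median was then 0.044, -0.028, -0.039 and -0.029. The complement median of week 10 was -0.15 over the brightest probe set per gene. Fewer probe sets enter with 1 value per gene or without shared probe sets. The members 1.5-fold higher at week 2 were 3 with the brightest probe set per gene and 1 with the gene mean, and 2 passed 2-fold. With the 20th percentile floor 1 was lower at week 2. At week 4 loess left 2 higher and 1 lower, quantile normalization left 1 lower, leaving out shared probe sets left 6 lower, and 0 were 2-fold lower. At week 10, 1 was higher with the 60th percentile floor, the brightest probe set, the gene mean, no shared probe sets or 2-fold, and 2 were lower with the gene mean or without shared probe sets. Under quantile normalization Fga and Fgb reversed at week 4 to 0.086 and 0.045; the cause was not tested. C8a at week 10 ranged from -1.28 to -1.20 over 8 alternatives, C8b from -1.94 to -1.64 over 7, C6 at week 4 from 1.02 to 1.34 and Klkb1 at week 10 from 0.997 to 1.05, while Klkb1 at week 2 ranged from 0.06 (values as deposited) to 0.78.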
